A study of Homo sapiens with 5 samples.

Results

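The E2F1-only promoter regions of LM2 cells were the E2F1 ChIP-Seq peaks that overlapped a promoter but neither a MYC peak nor a Fra-1 (FOSL1) peak. A promoter was any window from 2 kb upstream to 2.5 kb downstream of an annotated transcription start site (TSS), and an overlap of 1 bp was enough. They numbered 18974 of the 25089 E2F1 promoter peaks (75.6%), and of 36901 E2F1 peaks on chromosomes 1 to 22 and X. The presence or absence of MYC and Fra-1 peak calls chose these members, so that share describes the rule and is not a finding. LM2 is a derivative of the human breast cancer line MDA-MB-231 that metastasizes specifically to the lung, and the cells were untreated. A legend of the paper describes LM2 cells used for ChIP-Seq as expressing a control vector or an shRNA. It does not say which applies to each library. One antibody was used for each of E2F1, MYC and Fra-1, with 1 library per factor, and all were compared with the same input DNA from LM2 cells. With 1 library there is no replicate spread, and every interval below is a 95% interval that covers counting error only. The study asked where its transcription factors sit together in the genome, and the regions described here are those where E2F1 was called without MYC or Fra-1. EZH2 ChIP of the same cells and another factor of the study were not analysed here.

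E2F1 binds DNA as a dimer with a DP protein and activates genes needed for S phase. In resting cells the retinoblastoma protein and its relatives, called pocket proteins, hold E2F factors inactive, and cyclin-dependent kinases release them when cells enter the cycle. MYC with its partner MAX binds the E-box, and Fra-1 with a JUN protein binds the AP-1 site.

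The sequences below are the stretches around the summit, the base with the most fragments in a peak, and are shown because they hold the motifs on which the later comparisons turn. They are from the GRCh37 (hg19) genome, read along the named coding gene, and capitals mark the motif. The first set holds the E2F site at some of the strongest members that have one. An E2F site was any of the letters TTTCCCGC, TTTGGCGC, TTTCGCGC and TTTGCCGC on either strand. MRPL37 encodes a mitochondrial ribosomal protein, CASP8AP2 a protein needed for histone mRNA production, RANBP3 a cofactor of nuclear export and LUC7L2 a factor associated with the U1 snRNP.
MRPL37 (chr1:54665776-54665869, plus strand): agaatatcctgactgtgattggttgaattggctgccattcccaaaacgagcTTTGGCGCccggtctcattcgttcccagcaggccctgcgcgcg
CASP8AP2 (chr6:90539440-90539540, plus strand): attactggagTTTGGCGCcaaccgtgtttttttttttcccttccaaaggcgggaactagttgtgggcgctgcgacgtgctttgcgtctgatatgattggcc
RANBP3 (chr19:5978306-5978406, minus strand): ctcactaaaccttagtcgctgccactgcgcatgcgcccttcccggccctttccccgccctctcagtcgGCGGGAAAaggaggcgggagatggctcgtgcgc
LUC7L2 (chr7:139044394-139044455, plus strand): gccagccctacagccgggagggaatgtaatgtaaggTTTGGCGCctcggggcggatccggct

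The next set shows E2F sites at genes of replication, cell-cycle control, DNA repair, histones and meiosis. GINS1 and MCM5 are subunits of the replicative helicase, LIN52 belongs to the MuvB core that works with E2F4 and pocket proteins, and FANCG and FANCD2 act in crosslink repair. H2BC12 is a histone H2B gene and SYCE2 a protein of the synaptonemal complex. At MCM5 overlapping E2F sites read on both strands, and E2F1's own promoter held 2 separate sites. Runs in exons were kept to at most 30 bases, so some are short.
GINS1 (chr20:25388303-25388332, plus strand): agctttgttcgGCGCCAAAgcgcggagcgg
MCM5 (chr22:35795907-35796007, plus strand): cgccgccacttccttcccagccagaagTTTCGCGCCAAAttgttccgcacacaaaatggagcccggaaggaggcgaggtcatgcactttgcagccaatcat
LIN52 (chr14:74551596-74551688, plus strand): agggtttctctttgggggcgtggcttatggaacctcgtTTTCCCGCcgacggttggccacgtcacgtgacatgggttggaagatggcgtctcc
E2F1 (chr20:32274166-32274266, minus strand): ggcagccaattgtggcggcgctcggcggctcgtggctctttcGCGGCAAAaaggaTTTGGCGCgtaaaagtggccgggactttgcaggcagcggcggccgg
FANCG (chr9:35079785-35079814, minus strand): tcctccccgagTTTCCCGCgggaactaact
FANCD2 (chr3:10068108-10068137, plus strand): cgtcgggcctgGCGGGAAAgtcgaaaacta
H2BC12 (chr6:27114830-27114914, minus strand): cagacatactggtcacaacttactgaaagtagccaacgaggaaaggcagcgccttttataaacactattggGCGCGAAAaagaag
SYCE2 (chr19:13030068-13030097, minus strand): cgagcttgaagGCGGGAAAatacggaatgg

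The last set shows other motifs of proximal promoters that lay at member summits. They are the cell cycle genes homology region (CHR, TTTGAA or TTCGAA) at INCENP, the ETS site (CCGGAAG) at ZNF160, and the YY1 site (AAGATGGCG) at ATF1. INCENP is a scaffold of the chromosomal passenger complex, ZNF160 a zinc finger protein and ATF1 a transcription factor of the CREB family. H2BC12 and ATF1 lie outside the rule by which genes were named and were chosen after their values were seen.
INCENP (chr11:61891438-61891499, plus strand): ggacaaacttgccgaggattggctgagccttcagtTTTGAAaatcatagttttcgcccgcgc
ZNF160 (chr19:53606653-53606682, minus strand): tgcccacagacCCGGAAGtggatcgtgcgg
ATF1 (chr12:51157664-51157764, plus strand): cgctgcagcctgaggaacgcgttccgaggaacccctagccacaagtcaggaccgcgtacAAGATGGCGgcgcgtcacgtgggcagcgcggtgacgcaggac

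Members were of moderate strength as a group, with a tail as strong as any E2F1 peak. Strength is given as fold enrichment, the fragment pileup at the summit over the local background from the input. The median was 9.70 (9.47 to 9.73), with quartiles of 6.44 and 17.6 and a range from 2.48 to 92.5. The median pileup was 19 fragments and the median width 295 bp. A fold enrichment of at least 20 was reached by 3922 members (20.7%, 20.1 to 21.2%) and one of at least 50 by 142. E2F1 promoter peaks that overlapped MYC had a median of 28.0 (27.1 to 28.8) and a median width of 785 bp, while those that overlapped Fra-1 alone had 8.84 (8.59 to 9.12). E2F1-only peaks outside promoters were weaker, at 6.46 (6.43 to 6.61). Of the members, 1887 (9.95%, 9.53 to 10.4%) were at or above the median of the peaks with MYC. The share of E2F1 promoter peaks without either factor was 84.8% (83.9 to 85.7%) in the weakest quartile by fold enrichment and 58.4% (57.2 to 59.6%) in the strongest. Among the 1000 strongest E2F1 promoter peaks 326 were members, and 625 overlapped MYC. A wider peak meets another factor's peak more easily, and its part in these shares was not tested.

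**Figure D1:**
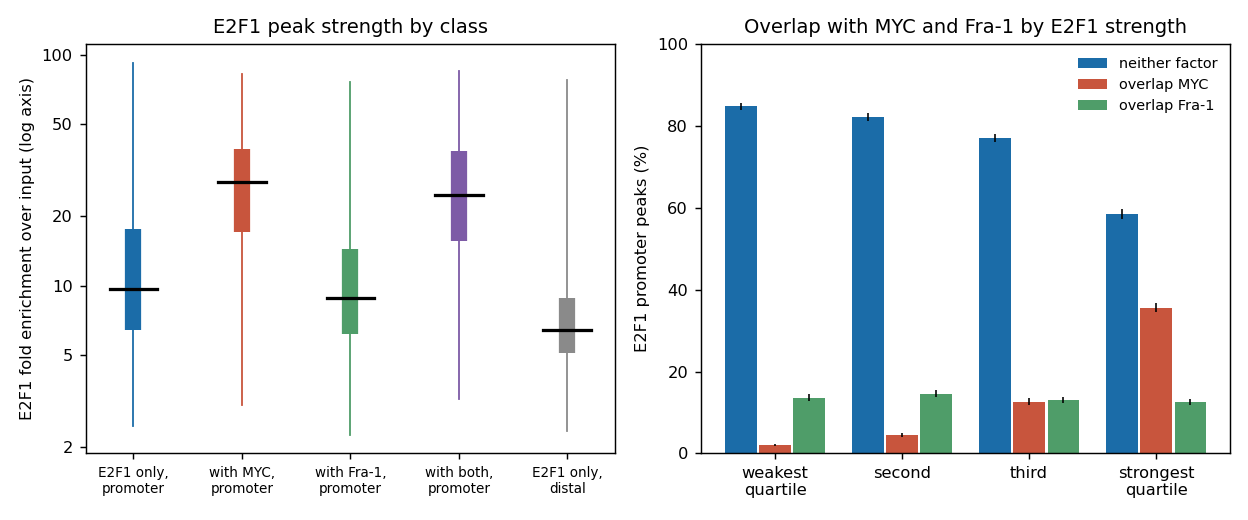
Left, E2F1 fold enrichment (log axis) of E2F1 peaks by class, with the median as a black bar, the quartiles as a thick bar and the range as a thin line. Right, share of E2F1 promoter peaks in each quartile of fold enrichment that overlapped neither factor, MYC or Fra-1 (peaks with both count under each; error bars are 95% Wilson intervals); the MYC share rises from 2.03% to 35.6% while the Fra-1 share stays between 12.5% and 14.5%.

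The strongest member of all lay at a pair of genes for the U4 small nuclear RNA of the spliceosome, RNU4-1 and RNU4-2, on chromosome 12. Its fold enrichment was 92.5 and its pileup 133, and it was picked out after its value was seen. Among members at protein-coding genes, TMSB4X, which encodes the actin-sequestering thymosin beta 4, came first at 81.3. SAT1, an enzyme of polyamine breakdown, followed at 76.2, and ZFP36, which destabilizes AU-rich mRNAs, at 75.9. The decoy TRAIL receptor gene TNFRSF10D had 75.8 and the cold-inducible RNA-binding protein gene CIRBP 72.5. RFC5, a subunit of the clamp loader of replication, had 70.9, the histone pair H2AC14 and H2BC14 shared a peak of 69.8, and CDC20, the mitotic activator of the anaphase-promoting complex, had 69.1. SPRY4, a feedback inhibitor of receptor tyrosine kinase signalling, and CITED2, a CBP/p300-binding coregulator, completed the first 10 at 68.9 and 68.4. These summits lay from 12 bp upstream of a TSS (CDC20) to 144 bp downstream (H2BC14). An E2F site lay at 1 of the 10 summits, that of TNFRSF10D. The nearest MYC peak was 234 bp away at CITED2 and 306 bp away at CIRBP, and at least 2705 bp away at the other 8.

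The absence of a MYC or Fra-1 peak is the absence of a peak call and not of binding, and 3079 members (16.2%, 15.7 to 16.8%) had a MYC or Fra-1 peak less than 1 kb away. The median distance to the nearest MYC peak was 92346 bp and to the nearest Fra-1 peak 37295 bp. At the edge of the rule, a member at FOXN3-AS1 with a fold enrichment of 5.96 lay 4 bp from a MYC peak, while a peak at SRPX with 5.61 shared 3 bp with MYC and was left out. Likewise a member at DNAJC11 (10.0) lay 3 bp from a Fra-1 peak, and a peak at PDE2A (10.9) shared 3 bp with Fra-1. Members with a neighbour less than 1 kb away were weaker, with a median of 8.07 against 10.1 for the 15895 without one. Another E2F1 peak lay less than 1 kb away from 13556 members (71.4%, 70.8 to 72.1%), so many members are one of several summits of a promoter. The weakest member by −log10 q, at NBPF1, had a fold enrichment of 3.51 and a −log10 q of 2.04, just above the authors' cutoff.

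Most members sat close to a TSS. The median distance from summit to nearest TSS was 166 bp, and 40.2% (39.5 to 40.9%) of summits lay within 100 bp and 89.8% (89.3 to 90.2%) within 1 kb. The window of the rule fixes that peaks are near a TSS but not how near. Peaks with MYC were closer, with a median of 53.0 bp and 62.8% (61.0 to 64.6%) within 100 bp. Of the member summits, 42.0% lay upstream of the nearest TSS, 46.9% fell in an exon, 35.4% in a gene outside its exons and 17.8% outside genes. Coding starts on both strands, in any order, lay within 1 kb of the summit for 8.72% (8.32 to 9.13%) of the members and 18.5% (17.1 to 20%) of the peaks with MYC. Strength fell with distance. The median fold enrichment was 15 for the 7629 summits within 100 bp of a TSS, 8.89 from 100 to 500 bp, 6.89 from 500 to 1000 bp and 6.76 beyond. Split into quartile groups by fold enrichment, the members had a median TSS distance of 436.5 bp in the weakest quartile and 48 bp in the strongest, and a median width of 169 and 647 bp.

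**Figure D2:**
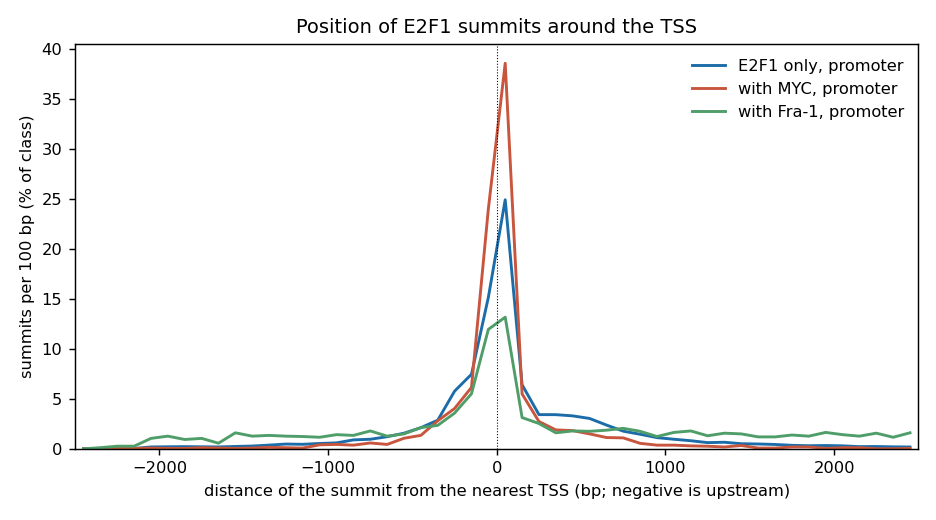
Share of summits per 100 bp (percent of each class) by distance from the nearest TSS in bp, negative upstream, for E2F1-only promoter peaks and for E2F1 promoter peaks with MYC or with Fra-1. The E2F1-only line peaks at 24.9% in the first 100 bp downstream, between the line of the peaks with MYC and that of the peaks with Fra-1.

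Member summits were rich in G and C, with a median of 62.4% of the bases within 50 bp of the summit and 6 CpG dinucleotides. The median was 64.4% for peaks with MYC, 52.5% for peaks with Fra-1 and 53.5% for distal E2F1-only peaks. It rose over the strength quartile groups of the members from 56.4% to 64.4%, and the median number of CpG dinucleotides from 3 to 8.

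E2F sites were rare at member summits. An E2F site lay within 50 bp of 392 summits (2.07%, 1.87 to 2.28%), against 1.38% (1.23 to 1.55%) of windows of the same length centred on 19819 canonical coding TSSs. The same letters in reverse order, which have the same base content, were found at 1.23% of member summits, a ratio of 1.68, and at 1.30% of the canonical windows. E2F1 peaks with MYC held the site more often, at 3.49% (2.87 to 4.24%), and those with Fra-1 at 0.930% (0.631 to 1.37%). Among members the share rose with strength, from 0.738% (0.531 to 1.02%) in the weakest quartile to 3.48% (2.99 to 4.04%) in the strongest, while that of the reversed letters went from 0.801% to 1.94%. Peaks with MYC in the same range of fold enrichment as that strongest quartile had 4.13% (3.35 to 5.09%), and the intervals overlap. Members with a site had a median fold enrichment of 14.8 (13.4 to 16.5) and those without 9.58 (9.44 to 9.71). The letters TTTCCCGC were the most frequent, at 204 members, followed by TTTGGCGC at 75, TTTGCCGC at 62 and TTTCGCGC at 56. In the same order, their reversed letters were at 75, 45, 35 and 80 members. TTTCGCGC was thus rarer than its reversed letters, and the excess was largest for TTTCCCGC. Of the 401 sites, 60.3% (55.5 to 65%) lay within 25 bp of the summit, 50.4% (45.5 to 55.2%) within 100 bp of the nearest TSS, and 56.4% (51.5 to 61.1%) read in the direction of the gene. The 10 strongest members with a site at coding genes were those of TNFRSF10D and of the MRPL37, CASP8AP2, RANBP3 and LUC7L2 promoters printed above, followed by TMPO (57.8), SMC1A (57.7), TBC1D15 (57.1), TMEM106C (56.5) and MZT2A (55.7). TMPO encodes a nuclear lamina protein, SMC1A a cohesin subunit, TBC1D15 a regulator of Rab7 and MZT2A a component of gamma-tubulin complexes. A match is a description of letters and does not show which factor bound there.

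Other promoter motifs followed strength in different directions. The ETS site lay at 4.07% (3.8 to 4.37%) of member summits and at 2.25% when reversed, and rose from 1.81% in the weakest quartile to 8.39% (7.64 to 9.21%) in the strongest. It was at 8.34% of all canonical TSS windows and at 11.9% (11.2 to 12.7%) of those of genes with E2F1 alone. The NRF1 site (GCATGCGC), bound by an activator of mitochondrial and other housekeeping genes, rose from 0.211% to 1.67%, and the YY1 site from 0.105% to 2.00%. Reversed, the YY1 letters occurred at 0.0527% of member summits. Canonical TSS windows held the NRF1 and YY1 sites at 1.8% and 2.3%, and those of genes with E2F1 alone at 2.7% and 3.1%. Over the same quartile groups the summits within 100 bp of a TSS went from 19.1% to 66.7%. The part of TSS distance in these rises was not tested. The CCAAT box (the letters CCAAT), bound by NF-Y, lay at 10.5% (10.0 to 10.9%) and changed little over the quartile groups, between 9.26% and 10.9%. The AP-1 site (TGACTCA) went the other way, from 3.01% (2.56 to 3.54%) in the weakest quartile to 0.548% (0.374 to 0.802%) in the strongest. Over all members it lay at 1.93% (1.74 to 2.13%), against 33.2% of the E2F1 promoter peaks with Fra-1 and 7.10% of distal E2F1-only peaks. The E-box (CACGTG) lay at 2.19% (1.99 to 2.40%) of members and 1.90% when reversed, against 8.76% (7.76 to 9.88%) of peaks with MYC. In the members' strongest quartile it was at 2.49% (2.08 to 2.97%), against 7.04% (6.0 to 8.23%) for peaks with MYC of the same strength range. The rule used the MYC and Fra-1 peak calls, so the E-box and AP-1 shares are given as descriptions only. The TATA box (TATAAA) was at 1.63% of member summits, below its reversed letters at 2.09%. Canonical TSS windows held it at 5.18%, those of genes with E2F1 alone at 2.19% (1.87 to 2.55%) and those of genes without any E2F1 promoter peak at 9.50% (8.86 to 10.18%).

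**Figure D3:**
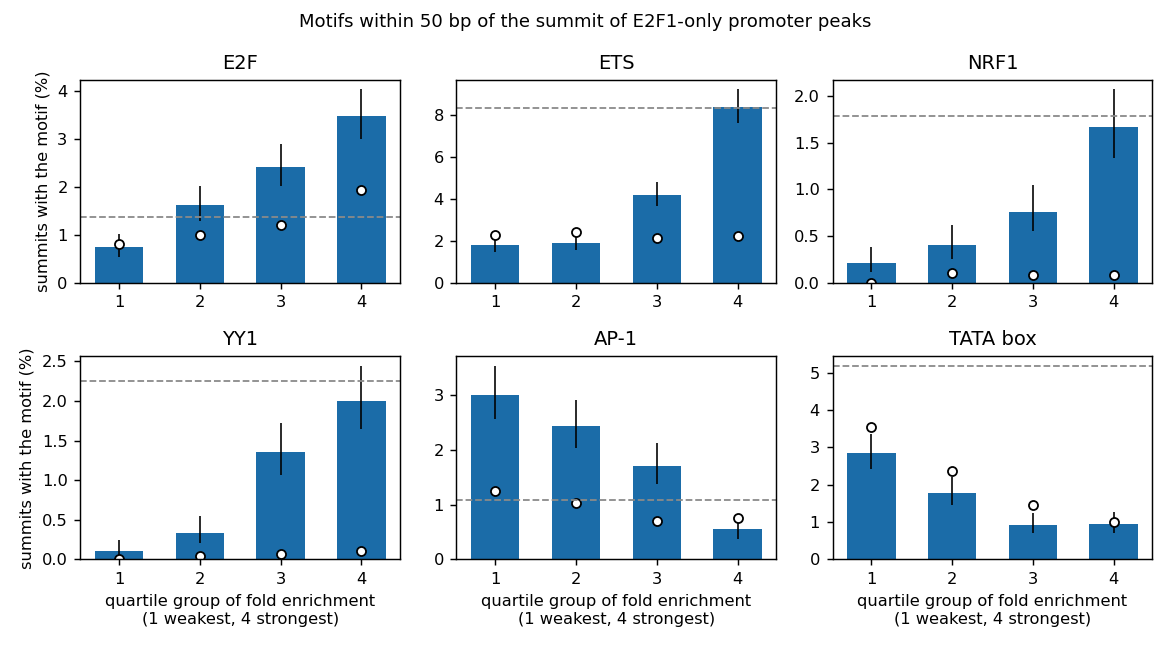
Share of member summits with each motif within 50 bp (percent, y axes differ) by quartile of fold enrichment (x axis, 1 weakest); bars have 95% Wilson intervals, open circles are the same letters reversed, and the dashed line is the share at canonical coding TSSs. E2F, ETS, NRF1 and YY1 sites rise with strength, from 0.738% to 3.48% for E2F, while AP-1 falls from 3.01% to 0.548%.

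Around the summit the motifs had different profiles. The E2F site was found in 1.03% of members in the first 20 bp from the summit and in 0.285% from 180 to 200 bp, whereas its reversed letters went from 0.559% to 0.395%. The YY1 site fell from 0.448% to 0.0949%. The GC box (GGGGCGG), bound by SP and KLF factors, was instead scarce at the summit, with 2.95% in the first 20 bp, and was most frequent from 120 to 140 bp away, with 10.3%. Its reversed letters followed the same course, from 2.91% to 10.9%. The reversed letters, GGCGGGG, also occur within longer GC boxes, so for this motif they are no control. The share of G and C itself differed much less, with 60.2% in the first 20 bp and 62.0% from 120 to 140 bp. A GC box lay within 50 bp of 8.11% (7.73 to 8.51%) of member summits, against 21.0% of canonical TSS windows. A GC box and an E2F site can share letters. The fragment length estimated for the E2F1 library was 113 bp, and its part in the position of this maximum was not tested.

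**Figure D4:**
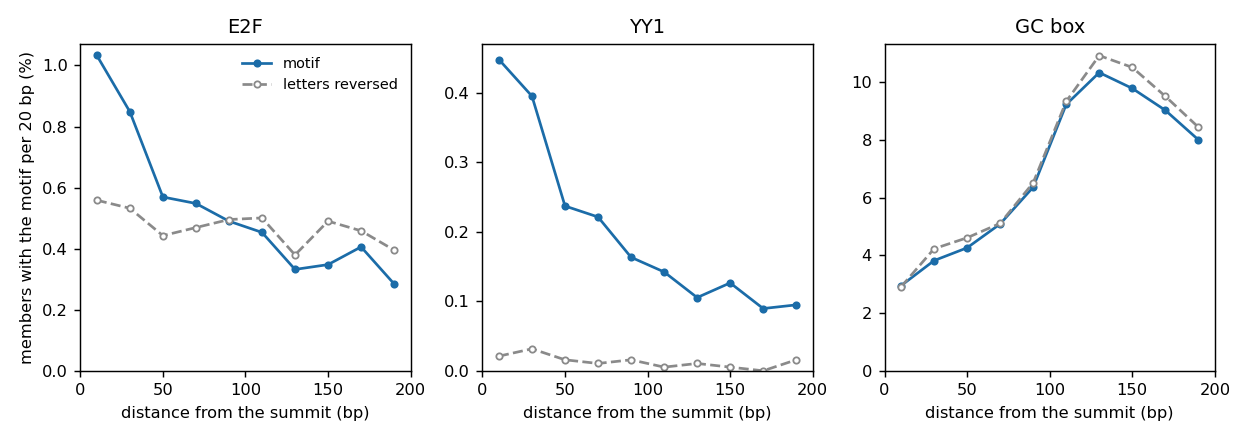
Members with a motif per 20 bp of distance from the summit (percent; both sides pooled) for E2F, YY1 and GC box letters, with the same letters reversed as a dashed line. E2F and YY1 letters are most frequent at the summit, at 1.03% and 0.448%, and GC box letters reach 10.3% at 120 to 140 bp.

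By gene, 10612 of 20098 protein-coding genes (52.8%) had a member in a promoter window, 61.3% had any E2F1 peak, 17.8% a MYC peak and 13.2% a Fra-1 peak. E2F1 was the only one of the 3 factors in all promoter windows of 7202 genes, which is 35.8% of all protein-coding genes and 58.5% of those with an E2F1 peak. A further 3417 genes had a member and also a MYC or Fra-1 peak in a window, namely 1612 with MYC, 1129 with Fra-1 and 676 with both. The strongest member had a median fold enrichment of 18.8 at genes with E2F1 alone and 11.8 at genes with another factor, where the rule leaves out any E2F1 peak that overlaps MYC or Fra-1, so these values are a description only. One member covered the windows of several genes where promoters are close, and genes are therefore not independent. The gene lists that follow are read against these shares, and a list in which nearly every gene had an E2F1 peak is read against the 58.5%.

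The machinery of DNA replication is a classical group of E2F targets. All 53 of its genes had an E2F1 peak, 42 had a member and 28 had E2F1 alone (52.8%, 39.7 to 65.6%), which is not above the 58.5% of genes with an E2F1 peak. This count depended on weak peak calls. With a −log10 q of at least 5 in all lists it was 38, beside 7981 in place of 7202 over all protein-coding genes. The share to set beside the 58.5% was not recomputed for that setting. The strongest members lay at RFC5 (70.9), GINS1 (53.2), PRIM1 (50.2), a primase subunit, and MCM5 (49.8). The list divided within complexes. Of the genes of the MCM helicase, MCM5 and MCM6 (28.1) had E2F1 alone, as did MCM10 (42.5), a replication factor outside that complex. MCM2 (4.27), MCM4 (31.8) and MCM7 (14.5) had a member and also a MYC peak in a window, and MCM7 a Fra-1 peak too. MCM3 had no member, and both MYC and Fra-1 had a peak in its windows. An E2F site lay at the strongest member of 9 of the 42 genes (21.4%), against 3.13% of all protein-coding genes with a member. In nucleotide synthesis all 27 genes had E2F1, 22 had a member and 8 had E2F1 alone (29.6%, 15.8 to 48.5%), while 18 had a MYC peak. DUT (53.0), which removes dUTP, had E2F1 alone, while RRM2 (57.4), a ribonucleotide reductase subunit, DTYMK (49.1), thymidylate kinase, and TYMS (42.5), thymidylate synthase, also had a MYC peak in a window. An E2F site was found at the strongest member of 0 of these 22 genes, a number too small to tell this share from the 3.13% of all genes.

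Among E2F, DP and pocket protein genes 16 of 18 had a member and 11 had E2F1 alone (61.1%, 38.6 to 79.7%). E2F1's own promoter held 5 members with fold enrichments of 6.23, 8.84, 13.1, 46.6 and 21.2. The strongest was 25 bp upstream of the TSS and holds both E2F sites printed above. LIN52 (46.8), LIN9 (27.2) and TFDP1 (24.6), which encodes the DP partner of E2F factors, had E2F1 alone, and so did RB1 (15.4), the retinoblastoma gene. A MYC peak lay in windows of 7 genes of the list, E2F3 among them, and a Fra-1 peak in none. Of 29 genes of cyclins and cell-cycle kinases 26 had a member and 17 had E2F1 alone (58.6%, 40.7 to 74.5%). CDC25C (53.5), the phosphatase that activates CDK1, CKS1B (48.7), a subunit of CDK complexes, CCNB2 (48.5), a mitotic cyclin, and CDK1 (40.0) led this list. The summit counted for CKS1B was nearest to a TSS of SHC1, 620 bp downstream of it.

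Of 46 mitosis genes all had E2F1, 39 had a member and 28 had E2F1 alone (60.9%, 46.5 to 73.6%), near the 58.5% of all genes with E2F1. CDC20 (69.1), INCENP (58.6), FOXM1 (54.2), an activator of G2/M genes, and NCAPG (52.4), a condensin subunit, had the strongest members. The summit counted for FOXM1 was nearest to a TSS of TULP3, 6 bp upstream of it. An E2F site was at 1 of the 39 strongest members, that of the centromeric histone gene CENPA, whereas a CCAAT box was at 14 (35.9%) and a CHR at 12 (30.8%), against 10.9% and 4.09% of all genes with a member. In the replication list the CCAAT box was at 8 of 42 and the CHR at 2. DNA repair genes had E2F1 in 44 of 44, a member in 36 and E2F1 alone in 22 (50%, 35.8 to 64.2%), with FANCG (46.7), FANCD2 (40.7), RAD51B (39.5) and ATRIP (34.5), the partner of the ATR kinase, in front. An E2F site was at 5 of the 36 strongest members.

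Replication-dependent histone genes had the strongest members of the 16 lists, with a median of 45.2 over the strongest members of 37 genes, against 16.5 over all protein-coding genes with a member. These genes lie in clusters and share peaks, so the strongest members of the 37 genes are 23 distinct peaks, whose median was also 45.2. Of 64 genes 38 had E2F1 and 34 had E2F1 alone, which is 89.5% of those with E2F1. A MYC peak lay in windows of 1 gene. H2AC14 and H2BC14 shared the peak of 69.8, and H2AC20 and H2AC21 a peak of 64.7 on chromosome 1. The lowest value was at H1-4 (4.27), where a Fra-1 peak also lay. Near-identical histone copies can lose reads, since only uniquely mapping reads were kept, and this was not tested for the 26 genes of the list without an E2F1 peak.

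The ribosome divided by compartment. All but 3 of 86 cytosolic ribosomal protein genes had E2F1, but E2F1 was alone at 4 (4.65%, 1.82 to 11.4%) and 79 genes (91.9%) had a MYC peak. A member was nevertheless present at 62, with a median of 9.30 for the strongest. Of the 4 genes, RPL39L (40.1) and RPL3L (28.6) are tissue-restricted relatives of ribosomal protein genes, and RPL28 (29.7) and RPS20 (27.9) are general ones. The strongest member of the list, at RPL6 (54.0), lay 8935 bp from the nearest MYC peak although a MYC peak was in another window of the gene. Its summit also lay in a promoter window of PTPN11, so the gene served by this peak cannot be told apart. The strongest member of RPL23A (33.2), which also lay in a window of RAB34, was 177 bp from a MYC peak. In contrast, 37 of 77 mitochondrial ribosomal protein genes had E2F1 alone (48.1%, 37.2 to 59.0%) and 35 had MYC. MRPL37 (66.5), MRPL51 (45.9), MRPL32 (44.8) and MRPL39 (44.2) were the strongest, and an ETS site was at 11 of the 52 strongest members (21.2%, against 6.50% of all genes with a member).

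Zinc finger genes of chromosome 19, many of them repressors of the KRAB family, often had E2F1 alone. Of 260 genes 222 had E2F1 and 178 had E2F1 alone (68.5%, 62.6 to 73.8%), which is 80.2% of those with E2F1. With the E2F1 list cut to as many peaks as the MYC list the count was 45 in place of 178. By the share of genes with E2F1, HOX genes (90%), histones (89.5%) and the germline list (81.8%) were higher. Their strongest members had a median of 18.2, and 83.7% lay within 100 bp of a TSS. ZNF160 (49.0), ZNF611 (49.0) and ZNF700 (47.4) had high values. ZFP36 (75.9) entered by its symbol but is a CCCH-type RNA-binding protein. The ETS site was at 47 of 202 strongest members (23.3%) and the E2F site at 6 (2.97%, against 3.13% of all).

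**Figure D5:**
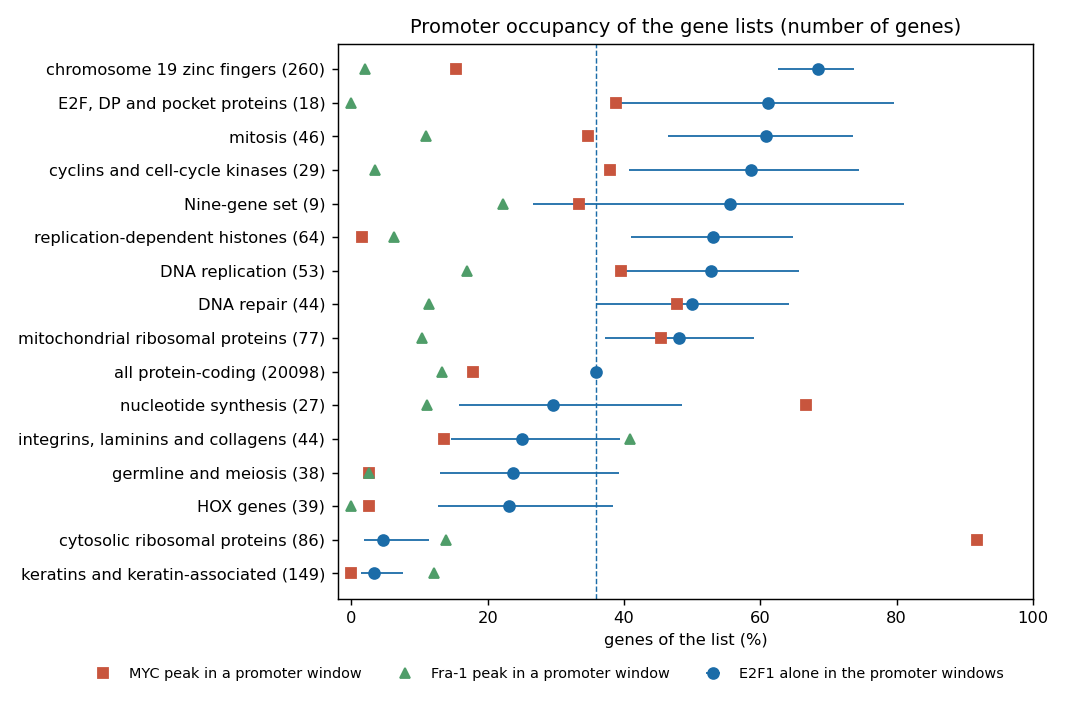
Share of the genes of each list (percent) with E2F1 alone in their promoter windows (circles with 95% Wilson intervals), with a MYC peak (squares) and with a Fra-1 peak (triangles); the number of genes is in brackets and the dashed line is the 35.8% of all protein-coding genes with E2F1 alone. Chromosome 19 zinc fingers reach 68.5% and cytosolic ribosomal proteins 4.65%, where MYC is at 91.9%.

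E2F1 was alone at 25% of adhesion genes and 23.7% of germline genes, and both intervals include the 35.8% of all protein-coding genes. The 2 lists differed in what lay behind these shares. An E2F1 peak was at 68.2% of adhesion genes and 29% of germline genes, against 61.3% of all. Among genes with an E2F1 peak, E2F1 was alone at 36.7% in the adhesion list and 81.8% in the germline list, against 58.5%. Among 44 genes of integrins, laminins and collagens 27 had a member and 11 had E2F1 alone (14.6 to 39.4%). A Fra-1 peak was at 18 of them (40.9%), against 13.2% of all protein-coding genes. ITGA3 (43.9) had MYC and Fra-1 as well, COL6A1 (29.1) and ITGAV (25.8) had E2F1 alone, and ITGA7 (26.4), which also had a Fra-1 peak in a window, shares its peak with the neighbouring gene BLOC1S1. Of 38 germline and meiosis genes 11 had E2F1 and 9 had E2F1 alone (13.0 to 39.2%). SMC1B (58.0), the meiotic cohesin subunit, faces RIBC2, and TEX14 (29.5) faces the repair gene RAD51C, so the gene served by these peaks cannot be told apart. SYCE2 (51.6) and TEX14 had an E2F site at the summit. PIWIL4 (21.4), a PIWI protein, lies next to FUT4, whose TSS is nearer to the summit.

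The nine-gene set was chosen by the study because depleting each gene lowered colonization of the lung by injected LM2 cells, and 7 of its 9 genes had a member. All 9 had an E2F1 peak, 3 a MYC peak and 2 a Fra-1 peak in a window. E2F1 was alone at ABHD11, E2F1, EZH2, IGFBP3 and PTP4A1. These 5 genes (55.6%, 26.7 to 81.1%) are near the 58.5% of all protein-coding genes with an E2F1 peak. A member lay at 77.8% of the set, against 52.8% of all protein-coding genes, of which only 61.3% had an E2F1 peak. The paper describes coordinated binding of its factors at the promoters of the set, which these peak calls did not give at the 5 genes. Among the rest, ADORA2B and PAICS had no Fra-1 peak in a window and SH3GL1 had no MYC peak. Only SFN had peaks of E2F1, MYC and Fra-1. ABHD11, a mitochondrial hydrolase, had members of 18.7 and 36.8. EZH2, the catalytic subunit of Polycomb repressive complex 2, had members of 21.6, 24.0 and 7.95, of which the first lay at the TSS and held an E2F site, a CCAAT box and a GC box. IGFBP3, a binder of insulin-like growth factors, had 1 member of 15.6, and the phosphatase gene PTP4A1 had members of 15.4, 7.73 and 6.47. The adenosine receptor gene ADORA2B had members of 15.8 and 11.5 on either side of a stronger E2F1 peak of 38.9 that overlapped MYC. SH3GL1, an endocytic protein, had members of 6.46 and 22.7 around a peak of 24.0 shared with Fra-1. The member of 22.7 lay 328 bp upstream of a TSS of CHAF1A, the gene nearest to its summit. PAICS, an enzyme of purine synthesis, had no member, since its peak of 28.5 overlapped MYC, and neither did SFN, whose peaks of 40.9 and 64.6 overlapped Fra-1 and both factors.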

How the data were processed

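The values are those of the E2F1, MYC and Fra-1 ChIP-Seq peak lists of LM2 cells (1 library each). Before deposit, the authors ran Trimmomatic 0.27, then Bowtie 0.12.5 against masked hg19. Only reads with a unique position and no mismatch over their first 45 bp were used, and duplicates were dropped. Tool versions are from the submitters' processing notes. Peaks were called per library with MACS2 2.0.10.20120913 at a q-value of 0.01 against 1 input library. Per the file headers, tags after filtering were 18056168 for E2F1, 23853621 for MYC, 12931227 for Fra-1 and 10758036 for the input. The deposited lists hold 36933 E2F1, 4867 MYC and 17320 Fra-1 peaks, so a MYC call is the rarest.

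The deposited signal is the fragment pileup at the summit. Fold enrichment, as deposited, divides that pileup by the local background after adding a pseudocount of 1 to both. Significance was deposited as −log10 p- and q-values. Repeats masked in the alignment genome cannot hold peaks.

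Overlaps, distances, motifs and gene windows were computed with Python 3.11.15, numpy 2.4.6 and pandas 2.3.3 and drawn with matplotlib 3.10.9, using GRCh37 and GENCODE 44 mapped to it (20098 protein-coding genes, 220349 start sites). No filter on low values was applied. Both strands were scanned for motif words up to 50 bp from each summit. Shares have 95% Wilson intervals and medians 95% order-statistic intervals, and these cover counting error only. No tests were made, since peaks of 1 library are not replicates. Members, lists and motifs were chosen with earlier results of these data known. The genes named are the 10 strongest members at coding genes, the 10 strongest with an E2F site, up to 4 per list by fold enrichment, the nine-gene set, the 3 genes with the most members and the edges of the rule. Other genes named were chosen after their values were seen. Procedures were tested on simulated data. The alternatives were a −log10 q of at least 5, windows of 1 kb either side of a TSS, 1 canonical TSS per coding gene, no other peak within 1 kb, an equal number of E2F1 and MYC peaks, and other motif settings.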

Additional observations from a re-analysis of the deposited data

How the results depend on the processing

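Of 62 recomputed values 44 stayed within their interval, or within 1.5 times for counts, and 18 moved; those for single gene lists were added after seeing the data. Cutting the E2F1 list by −log10 q to 4857 peaks, the number in the MYC list on chromosomes 1 to 22 and X, had the largest effect: there were 2418 members, with a median fold enrichment of 32.4, 98.2% of summits within 1 kb of a TSS, an E2F site at 4.76%, 63.4% G and C, 2742 protein-coding genes with a member and 2228 with E2F1 alone. E2F1 was then alone at 45 of 260 chromosome 19 zinc finger genes, in place of 178, and at 32 of 64 histone and 26 of 46 mitosis genes. It was alone at 20 of 53 replication and 3 of 86 cytosolic ribosomal protein genes. These counts stand beside 2228 of all 20098 protein-coding genes, a lower share than the 35.8% with the full list. The share among genes with an E2F1 peak, 58.5% with the full list, was not recomputed here. This setting changed both the number and the strength of the E2F1 peaks, and their parts in the lower counts were not tested. With a −log10 q of at least 5 in all lists the median fold enrichment was 11.1, 90.9% of summits lay within 1 kb of a TSS and 2.30% held an E2F site. Windows of 1 kb gave a median of 10.1 and 97.8% within 1 kb, 1 canonical TSS per gene gave 10.5 and 84.0%, and members without another factor within 1 kb had a median of 10.1. Windows of 1 kb drop only summits farther than that from a TSS, so their share within 1 kb rises by construction. With 1 canonical TSS per gene, distances are measured to fewer starts. For the other moved values of these settings, the cause was not tested. The E2F site share was 3.36% within 100 bp of the summit and 8.26% with 7 letters, settings that admit more matches by construction. For the 5 lists recomputed (replication, mitosis, cytosolic ribosomal proteins, histones and zinc fingers), each count other than that of the zinc fingers under equal peak numbers stayed within 1.5 times in the 5 settings. The count over all protein-coding genes did not stay so under equal peak numbers, at 2228 in place of 7202. No paired analysis was possible because each factor has 1 library. The rule rests on peak calls: a weak MYC or Fra-1 site below the peak cutoff leaves an E2F1 peak among the members.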

Other observations

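Members also lay at genes that encode no protein. The nearest start was that of a protein-coding gene for 15278 members (80.5%, 79.9 to 81.1%) and of a long non-coding RNA gene for 3082 (16.2%, 15.7 to 16.8%), with median fold enrichments of 9.73 and 9.30. Small nuclear RNA genes were nearest to 63 members, whose median of 20.2 was the highest of the 10 most frequent gene types, and microRNA genes to 113 members with a median of 7.05. Of 18592 annotated long non-coding RNA genes 3761 (20.2%) had a member in a window, and of 1897 small nuclear RNA genes 82 (4.32%).

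Some genes with many start sites collected many members. TSC22D1, a transcriptional regulator induced by TGF-beta, had 15 members over 12 start sites, from 3.44 to 44.7 in fold enrichment. ANXA2, a membrane-binding annexin, had 11 over 23 start sites, the highest at 17.5, along with 4 Fra-1 peaks. MACF1, a linker of actin and microtubules, had 11 over 53 start sites, the highest at 14.1. Across chromosomes the share of coding genes with a member ran from 38.9% on chromosome 21 and 41.2% on X to 59.9% on chromosome 14.

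Tissue-restricted families mostly lacked any E2F1 peak, and so lacked members. Over all protein-coding genes 61.3% had an E2F1 peak, 52.8% a member and 35.8% E2F1 alone. Of 414 olfactory receptor genes 0 had a member, which allows a share of up to 0.919% (upper Wilson bound), and 1 had an E2F1 peak. Of 149 keratin and keratin-associated genes 21 had an E2F1 peak, 13 a member (8.7%), 5 E2F1 alone (3.36%) and 18 a Fra-1 peak. KRT19 (61.8), an epithelial keratin, and KRT8 (14.6) had members 1469 and 156 bp from the nearest Fra-1 peak, and KRTAP4-8 (31.8) and KRTAP4-11 (16.7) had E2F1 alone. Of 39 HOX genes 10 had an E2F1 peak, and all 10 of these had a member (25.6% of the list). E2F1 was alone at 9, which is 90% of those with E2F1, against 58.5% of all protein-coding genes with an E2F1 peak. HOXC6 and HOXC9 shared a peak of 35.6, HOXD1 had 19.2, and HOXD4 had 17.6 at a summit 1092 bp downstream of a TSS.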
